A study of Mus musculus with 4 samples.

Results

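Circular RNAs (circRNAs, circles) made from genes of chromatin remodellers and histone modifiers were followed through 4 stages of mouse lung development. The hosts were the genes of the deposited lists whose symbol begins with Chd, Kmt2, Kmt5, Kdm, Setd, Smarc, Arid, Baz, Brd, Phf, Hdac or Kat and that belong to a chromatin family, plus Ep400 and L3mbtl3. They numbered 78 of 4647 host genes and held 376 of 13499 circRNAs. Chdh, a choline dehydrogenase, and the katanin genes Katna1 and Katnal1 begin with the same letters and were not counted.

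Lung RNA of C57BL/6 mice was sequenced as 1 library per stage: pseudoglandular at embryonic day 14.5, canalicular at embryonic day 16.5, terminal sac at embryonic day 18.5 and alveolar at newborn day 7.5. All animals share strain and tissue, no genotype or treatment is labelled, and no label tells whether a library pools several animals. Each stage has a single library, so every comparison is between 2 libraries, carries no p-value and has no replicate check. Intervals are at 95% and reflect the counting of reads alone. In whole lung, fewer cells of a type and less RNA per cell cannot be told apart.

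A circRNA forms when the end of a downstream exon is spliced to the start of an upstream one, which leaves a closed loop with a junction that the linear mRNA lacks. Chromatin remodellers use ATP to move or replace nucleosomes, while histone modifiers add or remove acetyl and methyl groups that reader proteins then bind. These proteins set which genes a cell can use, and in the embryonic lung they act in both epithelium and mesenchyme. A circle of such a gene is an RNA product of the locus and is no measure of the protein.

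The circles on which the results turn are identified by the bases at their junctions, read 5′ to 3′ from GENCODE M21 transcripts on mm10. The following were the circles closed on a coding exon for which the last 40 bases before the junction are shown, with the final 20 in capitals. The pair from Ep400 differs at this end.

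Phf21a exons 2 to 6 (chr2:92214049-92230724, + strand): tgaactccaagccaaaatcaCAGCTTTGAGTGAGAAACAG
Ep400 exon 2 (chr5:110755397-110756766, - strand): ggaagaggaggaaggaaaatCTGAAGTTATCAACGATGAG
Ep400 exons 2 to 3 (chr5:110753804-110756766, - strand): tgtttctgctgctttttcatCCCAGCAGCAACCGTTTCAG
Kat6b exon 2 (chr14:21516626-21517498, + strand): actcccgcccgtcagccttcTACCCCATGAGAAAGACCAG

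For the next circles both sides of the junction are coding, and the sequence shown crosses it. The last 20 bases of the circle are in lower case and its first 20 bases in capitals. They are shown because their hosts lead the calls between stages, or, for Chd2, because both circles begin at the same exon.

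Kat6b exons 8 to 12 (chr14:21626719-21637640, + strand): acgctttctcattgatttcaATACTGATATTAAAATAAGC
Baz2b exons 7 to 11 (chr2:59948087-59962630, - strand): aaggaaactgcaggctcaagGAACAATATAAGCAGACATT
Baz1b exons 7 to 9 (chr5:135216590-135223218, + strand): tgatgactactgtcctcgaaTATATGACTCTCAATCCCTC
Arid1a exons 2 to 4 (chr4:133719537-133723051, - strand): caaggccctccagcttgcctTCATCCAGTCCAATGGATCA
Kdm1a exons 3 to 8 (chr4:136568573-136577204, - strand): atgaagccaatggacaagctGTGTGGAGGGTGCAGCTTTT
Chd2 exons 3 to 5 (chr7:73514090-73519708, - strand): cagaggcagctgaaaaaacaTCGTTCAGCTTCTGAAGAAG
Chd2 exons 3 to 6 (chr7:73507806-73519708, - strand): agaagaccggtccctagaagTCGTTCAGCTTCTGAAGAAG
Chd4 exons 32 to 34 (chr6:125121971-125122548, + strand): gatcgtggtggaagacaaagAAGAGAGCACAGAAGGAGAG

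The capitals of both Chd2 sequences are the same, since the circles share their first exon and differ in where they close. The Chd4 circle is the odd one of the set: 9 bases are shared between its ends in the transcript, and only 1 of its ends lies at an exon boundary.

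The files listed 25983, 31218, 36156 and 28332 junction reads in the pseudoglandular, canalicular, terminal sac and alveolar libraries, and no circle with fewer than 2. Levels below are junction reads per 10000 listed in the same library. As a check of the tissue labels, hosts that mark alveolar type 2 epithelium held 0, 0.0192, 1.22 and 2.70% of junction reads by stage, with 4 of 5 markers listed in any library and Abca3 in none. Cycling-cell hosts held 0.508, 0.570, 0.313 and 0.141%, with 8 of 8 listed in any library and Cenpe, Mki67 and Kif20b at 0 in the terminal sac and alveolar libraries. Cardiac and striated muscle hosts held between 0.354 and 0.801%, with 5 of 9 listed and Actn2, Myh6, Myh7 and Tnnt2 at 0 in all libraries. Endothelial hosts held 0.0462, 0.0897, 0.224 and 0.416% in order of stage, with 5 of 5 listed in any library. Immune hosts held 0.0385, 0.151, 0.174 and 0.0529%, with 6 of 7 listed, Cd74 at 0 in all libraries and Ptprc and Csf1r at 0 after the pseudoglandular stage. Erythroid hosts (2 of 5 listed) stayed at or below 0.0801% and neuronal and neuroendocrine hosts (1 of 6) at or below 0.0194%.

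Reads of the chromatin hosts were concentrated in a few genes. Phf21a and Ep400 together held 35.0% of the 3325 member reads and the 5 leading hosts 49.1%, while 30 of the 78 hosts had fewer than 10 reads over the 4 libraries. Phf21a ranked 17 and Ep400 ranked 24 among all hosts of the series. The median member had 14.5 reads, against 6 over all hosts, and 34 members were listed in every library.

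The chromatin hosts held 728, 951, 1031 and 615 junction reads in order of stage. These were 2.80% (2.60 to 3.01), 3.05% (2.86 to 3.24), 2.85% (2.68 to 3.03) and 2.17% (2.004 to 2.35) of the library. The alveolar share was the lowest, and its interval lay below those of the other stages. It was 1.29-fold lower than the pseudoglandular share (1.16 to 1.44) and 1.31-fold lower than the terminal sac share (1.19 to 1.45). Without Phf21a the alveolar share was 1.15-fold lower than the pseudoglandular one (1.02 to 1.30). Circles with repeated bases at their ends or with few distinct read alignments, which are described under Chd4, took 14.1% of all alveolar junction reads, against 3.87% in the pseudoglandular library. When they were left out of both sums the member shares were 2.77, 2.94, 2.99 and 2.42% in order of stage. The share of the cycling-cell hosts was also lowest in the alveolar library, and its part in the result was not tested.

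Scaling the libraries by the reads that cross the circle ends linearly, with the median of ratios over circles listed in all libraries, added 0.38 on the log2 scale to every alveolar over pseudoglandular ratio and 0.59 to every terminal sac over canalicular ratio. On that scale the alveolar over pseudoglandular ratio of the summed member reads was 1.007, near 1. The terminal sac over canalicular ratio was 1.41, against 0.936 (0.856 to 1.02) relative to all listed junction reads. Both levels thus depend on which reads they are set against. The shift was the same for every host, so it does not change the member share of listed junction reads. Changes of single hosts below are relative to all listed junction reads.

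A host was called higher or lower in a pair of libraries when it had 10 or more reads in the pair, differed at least 2-fold and had an interval that excluded 1, with no adjustment over hosts. The 4 pairs compared were alveolar against pseudoglandular and each stage against the one before it. Alveolar against canalicular and terminal sac against pseudoglandular were not compared. A host listed in 1 library of the pair was set to 3 reads in the other, and its fold is written "at least". Such a bound holds only if the unlisted circles had no more than 3 reads together.

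Between the alveolar and the pseudoglandular library, 32 chromatin hosts had enough reads. Of them 4 were higher in the alveolar library and 6 were lower, where 12.9% of all 1084 hosts compared were called higher and 16.7% were called lower. The member counts are therefore near the background. Their median ratio was 0.723, against 0.917 over all hosts. A ratio below 1 was found in 21 of the 32, against 575 of 1084 over all hosts. Endothelial and alveolar type 2 hosts were higher and cycling-cell hosts lower in the same alveolar library, and their part in these calls was not tested. The 4 higher hosts were Kdm1a, Baz2b, Smarca2 and Arid1a, and the 6 lower were Phf14, Kmt2e, Phf20, Chd4, Smarcc1 and Phf21a.

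**Figure D1:**
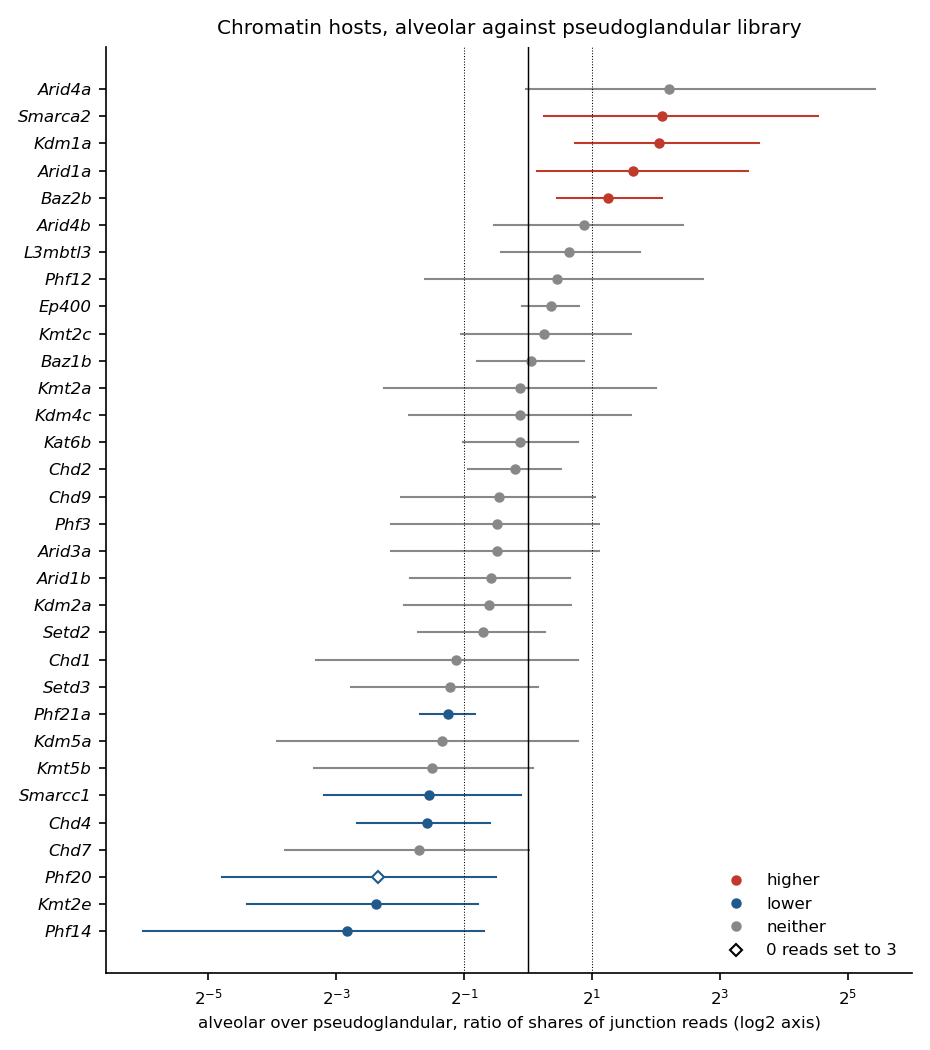
Ratio of the share of junction reads in the alveolar library over that in the pseudoglandular library (log2 axis) for the 32 chromatin hosts with 10 or more reads in the pair. Points are ratios and lines 95% counting intervals; red marks hosts called higher, blue lower, grey neither, the open diamond a host with 0 alveolar reads set to 3, and dotted lines 2-fold. Kdm1a, Baz2b, Smarca2 and Arid1a lie on the right, and 6 hosts from Phf21a to Phf14 on the left.

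CHD remodellers are ATP-dependent enzymes, most of them with paired chromodomains, and the group was taken by symbol and includes Chd1l. Their 9 hosts formed 66 circles with 454 reads, at 42.3, 47.7, 36.2 and 22.6 reads per 10000 in order of stage. The alveolar level was 1.87-fold lower than the pseudoglandular one (1.36 to 2.59), and the terminal sac level was 1.32-fold lower than the canalicular one (1.03 to 1.68). Without Chd4, whose main circle is doubtful as described under that host, the group was 1.61-fold lower in the alveolar than in the pseudoglandular library (1.12 to 2.34). Without Chd4 the terminal sac over canalicular ratio was 0.944 (0.730 to 1.22), and without Chd8 it was 0.797 (0.623 to 1.02), so that step rests on single hosts. Of the 5 CHD hosts compared between the alveolar and pseudoglandular libraries, 1 was lower (Chd4) and none was higher, where 16.7% and 12.9% of all hosts were called.

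Chd2, a remodeller linked to transcribed genes, had the most distinct circles of any member. Its 28 circles gave 35, 74, 76 and 33 reads in order of stage, or 13.5, 23.7, 21.02 and 11.6 per 10000. Both middle stages were high and both outer stages low. The canalicular level was 1.76-fold higher than the pseudoglandular one (1.16 to 2.71) and the alveolar level 1.81-fold lower than the terminal sac one (1.19 to 2.80), both short of 2-fold. By stage, 6, 16, 14 and 7 circles of Chd2 were listed. The sums of the immune hosts (0.151 and 0.174%) and of the erythroid hosts (0.0801 and 0.0526%) were also highest at both middle stages. Within the immune list, Ptprc and Csf1r were at 0 at both of these stages. The part of either list in the pattern of Chd2 was not tested.

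The leading Chd2 circles start at the same exon and close on different ones. The circle of exons 3 to 5 had 15, 12, 22 and 12 reads in order of stage, and that of exons 3 to 6 had 11, 8, 4 and 0. The longer circle was at least 3.998-fold lower in the alveolar than in the pseudoglandular library (1.06 to 22.3 with 3 reads set), while the shorter circle had similar counts in the outer stages. Of the reads of this pair, the shorter circle took 100% in the alveolar library (73.5 to 100) and 57.7% in the pseudoglandular library (36.9 to 76.6). Those intervals overlap.

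Chd4, the ATPase of the NuRD deacetylase complex, had 33, 31, 2 and 12 reads in order of stage. It was 2.999-fold lower in the alveolar than in the pseudoglandular library (1.51 to 6.38) and 17.95-fold lower in the terminal sac than in the canalicular library (4.57 to 155). It was 7.66-fold higher in the alveolar than in the terminal sac library (1.70 to 70.4). These calls rest on the circle of exons 32 to 34, which gave 28, 31, 0 and 12 of the reads and whose junction is printed above. That circle has the 9 shared bases at its ends, and its 28 pseudoglandular reads, 31 canalicular reads and 12 alveolar reads fell into only 8, 7 and 3 alignment patterns. Without circles that share 6 or more bases at their ends, Chd4 lost all 3 calls.

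Chd9, a less studied chromodomain helicase, had 10, 25, 28 and 8 reads in order of stage. It was 2.74-fold lower in the alveolar than in the terminal sac library (1.22 to 6.96), a call lost when circles with 2 reads were left out. All 8 alveolar reads came from the single circle of exon 3, which had 5, 16, 15 and 8 reads by stage. Chd7, mutated in CHARGE syndrome in humans, had 12, 6, 12 and 4 reads and was not called in any of the 4 pairs compared.

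SWI/SNF subunits belong to the BAF and PBAF complexes, which slide and eject nucleosomes. Their 10 hosts formed 44 circles with 271 reads, at 18.9, 24.0, 24.6 and 20.5 per 10000 in order of stage. The group sum differed little between outer stages, with an alveolar over pseudoglandular ratio of 1.09 (0.729 to 1.62). Of the 4 hosts compared in that pair, 2 were higher (Arid1a and Smarca2) and 1 was lower (Smarcc1). Of all hosts, 12.9% were called higher and 16.7% lower. The Smarca2 and Smarcc1 calls were lost under some alternative settings, as given below.

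Arid1a and Arid1b encode alternative large subunits of the BAF complex. Arid1a had 5, 12, 8 and 17 reads in order of stage, highest in the alveolar library. It was 3.12-fold higher there than in the pseudoglandular library (1.10 to 10.8) and 2.71-fold higher than in the terminal sac library (1.11 to 7.26). The second call was lost on the scale of linear reads, at a ratio of 2.12. Arid1b had 15, 23, 25 and 11 reads and was not called in any of the 4 pairs compared, with an alveolar over pseudoglandular ratio of 0.672 (0.279 to 1.57). The interval of this ratio overlaps that of Arid1a, and the difference between these paralogous hosts was not tested. The main Arid1a circle, exons 2 to 4, held 95.2% of the host's reads, while the main Arid1b circle, also exons 2 to 4, held 66.2%.

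The ATPase Smarca2 (BRM) had 3, 14, 31 and 14 reads spread over 13 circles. The pseudoglandular library was low and the terminal sac library high. Its level was 4.28-fold higher in the alveolar than in the pseudoglandular library (1.19 to 23.2) and 3.88-fold higher in the canalicular than in the pseudoglandular library (1.08 to 21.1). None of the 13 circles was listed in all libraries, and 9 were listed in 1 library. With circles of 3 or more reads alone, the alveolar over pseudoglandular ratio was 1.21 and the call was lost. Smarca4 (BRG1), the alternative ATPase, had 4, 4, 2 and 2 reads, too few to compare.

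Smarcc1, a core scaffold subunit, had 16, 10, 17 and 6 reads in order of stage. Its alveolar level was 2.91-fold lower than its pseudoglandular level (1.08 to 9.07). This call was lost under 5 of 8 alternative settings, all 3 other scalings among them. The paralogue Smarcc2 was listed at 6 canalicular and 4 alveolar reads, from 1 circle.

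ISWI and other SNF2-type remodellers and their partners held the second largest sum. These 6 hosts formed 54 circles with 769 reads, at 53.5, 67.0, 66.7 and 63.5 per 10000 in order of stage. The alveolar over pseudoglandular ratio was 1.19 (0.947 to 1.49), and it was 1.26 (1.001 to 1.59) without Baz1a, and the same without Smarcad1. Ep400 alone gave most of the reads.

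Ep400, the SNF2-type ATPase of the TIP60 complex that exchanges histone variants, had 74, 143, 181 and 103 reads in order of stage. Its level was 28.5, 45.8, 50.1 and 36.4 per 10000, lowest at the pseudoglandular stage and high in the canalicular and terminal sac libraries. The canalicular level was 1.61-fold higher than the pseudoglandular level (1.21 to 2.16), which is short of 2-fold. The part of the immune and erythroid hosts, whose sums were also highest at those stages, was not tested here either.

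The leading circles of Ep400 did not move together. Both begin at exon 2, which holds the start codon. One closes at the end of exon 2, with 1370 bases, and the other takes in exon 3 of transcripts Ep400-202 and Ep400-203, with 1481 bases. That exon (chr5:110753804-110753914) has 111 bases, or 37 codons, and is present in 2 of 5 annotated Ep400 transcripts that span it. Ep400-201 lacks it.

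The exon 2 circle had 30, 98, 116 and 71 reads in order of stage, while the circle of exons 2 to 3 had 35, 36, 45 and 21. In the pseudoglandular library the counts were near equal, and in each later library the single-exon circle led. It took 46.2% of the reads of the pair (33.7 to 59.0) in the pseudoglandular library, 73.1% (64.8 to 80.4) in the canalicular, 72.0% (64.4 to 78.8) in the terminal sac and 77.2% (67.2 to 85.3) in the alveolar library. The pseudoglandular interval overlaps none of the later ones. This split is a share within 1 host, so it does not depend on how libraries are scaled.

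Against all listed reads, the exon 2 circle was 2.17-fold higher in the alveolar than in the pseudoglandular library (1.40 to 3.45) and 2.72-fold higher in the canalicular than in the pseudoglandular library (1.79 to 4.24). The alveolar over pseudoglandular ratio of the 2-exon circle was 0.550. Junction reads set against the reads that cross the ends of each circle linearly gave the same contrast. The linear reads were 370 in the alveolar and 374 in the pseudoglandular library for the exon 2 circle. For the circle of exons 2 to 3 they were 203 and 158. The circles share an end and the junction reads are those given above, so these values are no separate support. The circular share of reads at the ends, junction reads times 2 over that plus linear reads, was 27.7% in the alveolar and 13.8% in the pseudoglandular library for the exon 2 circle. For the circle of exons 2 to 3 it was 17.1% in the alveolar and 30.7% in the pseudoglandular library. As odds of circular to linear reads, the alveolar value was 2.37-fold higher for the first (1.51 to 3.71) and 2.12-fold lower for the second (1.19 to 3.77).

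**Figure D2:**
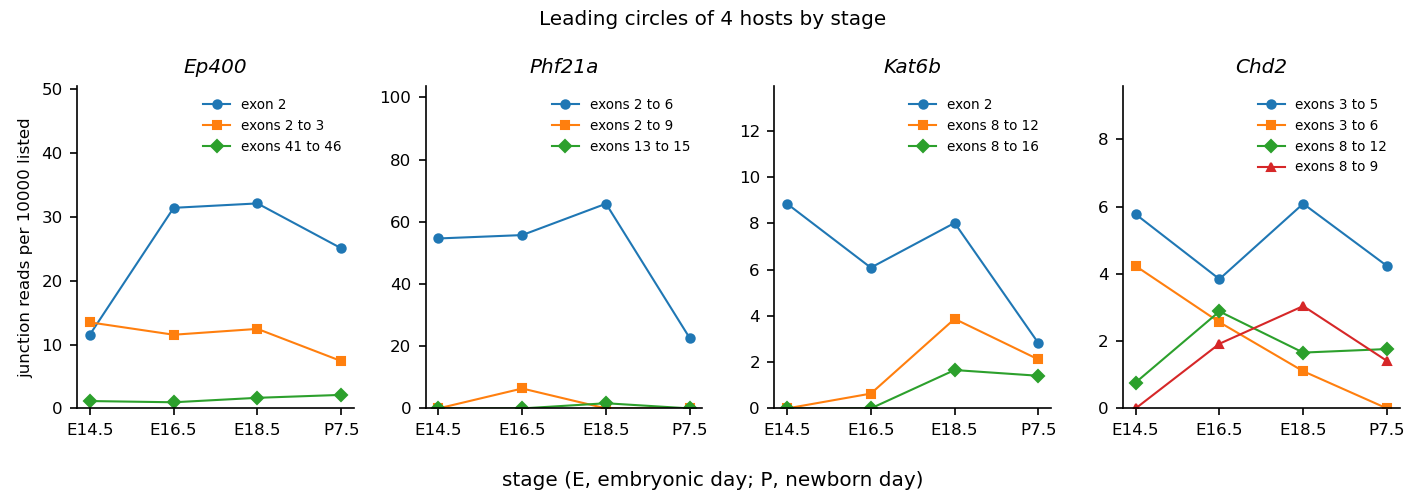
Junction reads per 10000 listed (vertical axis, from 0) by stage for the leading circles of Ep400, Phf21a, Kat6b and Chd2; each point is 1 library, and E and P mark embryonic and newborn days. The exon 2 circle of Ep400 lies level with the 2-exon circle at embryonic day 14.5 and above it later, and the Kat6b circles from exon 8 onward appear after embryonic day 14.5.

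Baz2b, a bromodomain protein that partners ISWI ATPases, had 19, 29, 29 and 49 reads in order of stage. The alveolar library was the highest, 2.37-fold above the pseudoglandular (1.37 to 4.25) and 2.16-fold above the terminal sac library (1.34 to 3.54). On the scale of linear reads the second ratio was 1.69 and not called. Its main circle, exons 7 to 11, had 8, 9, 17 and 30 reads and was 3.44-fold higher in the alveolar than in the pseudoglandular library (1.54 to 8.68). The other 18 circles of Baz2b gave 11, 20, 12 and 19 reads by stage. The odds of circular to linear reads at the ends of the main circle were also higher in the alveolar than in the pseudoglandular library, 2.80-fold (1.30 to 6.04). Summed over the host, the odds ratio was 1.35 (0.799 to 2.29) and not called.

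Baz1b, the WSTF subunit of ISWI complexes, had 25, 20, 11 and 28 reads in order of stage, lowest in the terminal sac library. Its alveolar level was 3.25-fold higher than its terminal sac level (1.57 to 7.23), while the outer stages differed by less than their intervals, with a ratio of 1.03 (0.577 to 1.84). The circle of exons 7 to 9 carried this dip, with 16, 12, 4 and 17 reads. Smarcad1 had 8, 3, 11 and 0 reads and Baz1a had 8, 8, 6 and 0, neither called in those pairs.

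**Figure D3:**
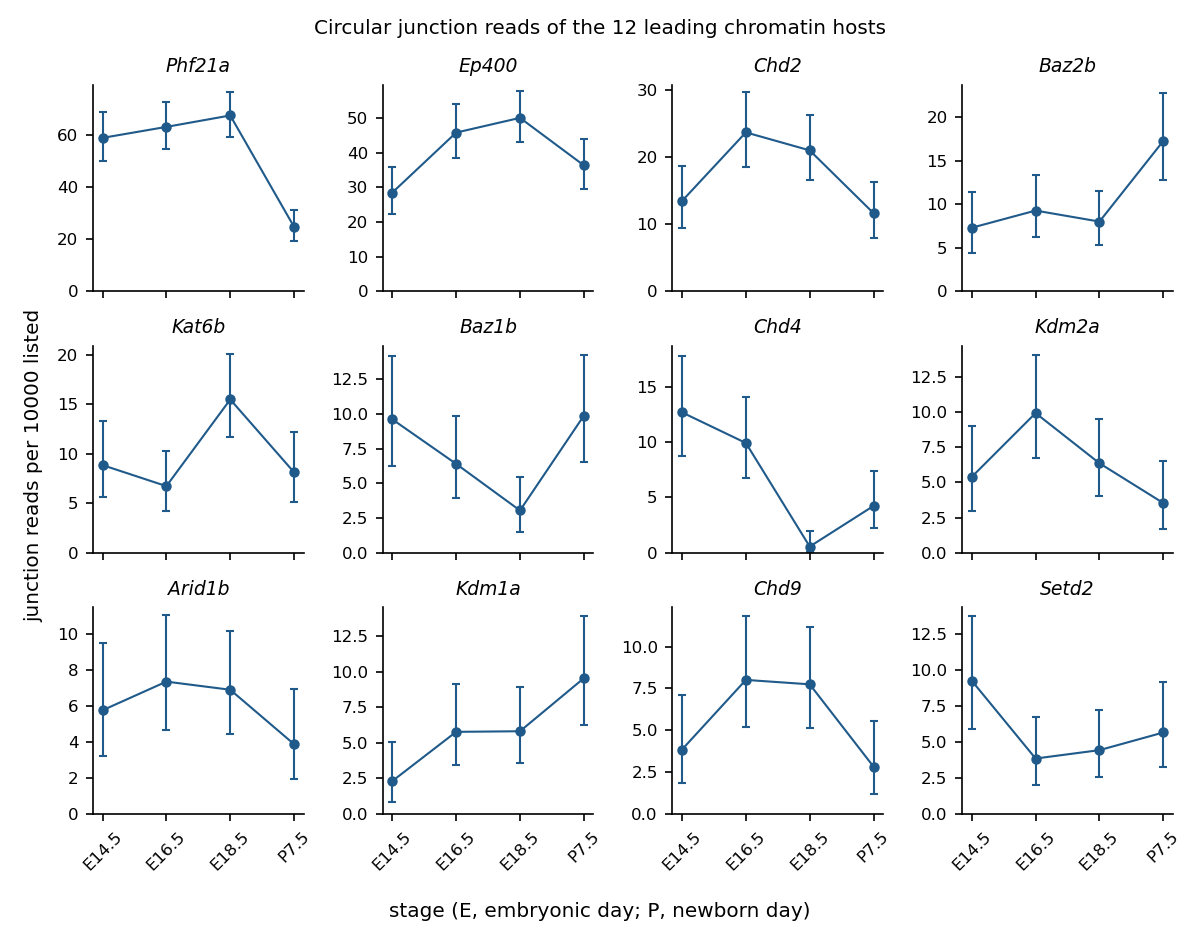
Junction reads per 10000 listed (vertical axes, each from 0 and on its own scale) by stage for the 12 chromatin hosts with most reads; points are single libraries and bars exact 95% Poisson intervals. Phf21a drops in the alveolar library to 24.7, Baz2b and Kdm1a are highest there at 17.3 and 9.53, and Kat6b peaks in the terminal sac library at 15.5.

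Histone methyltransferases and SET-domain proteins gave 366 reads from 61 circles of 10 hosts, at 36.6, 31.4, 31.5 and 20.8 per 10000 in order of stage. The alveolar level was 1.76-fold lower than the pseudoglandular one (1.26 to 2.47) and 1.51-fold lower than the terminal sac one (1.10 to 2.11). The alveolar over terminal sac interval reached 1 without Kmt2e, at a ratio of 0.747 (0.525 to 1.05), and without Kmt5b, at 0.718 (0.505 to 1.01). Of 6 hosts compared between the alveolar and pseudoglandular libraries, 1 was lower (Kmt2e) and none was higher, where 16.7% and 12.9% of all hosts were called.

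Kmt2e, a SET protein of the MLL family, had 19, 24, 20 and 4 reads in order of stage. The embryonic libraries were close to each other and the newborn library was low. Its alveolar level was 5.18-fold lower than its pseudoglandular level (1.72 to 20.9) and 3.92-fold lower than its terminal sac level (1.31 to 15.8), and both calls held under all 8 alternative settings. Its 17 circles were mostly different between libraries, with 13 listed in 1 library and none in 4, and the leading one held 14.9% of the reads.

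Setd2, which trimethylates lysine 36 of histone H3, had 24, 12, 16 and 16 reads in order of stage. The canalicular level was 2.40-fold lower than the pseudoglandular level (1.16 to 5.27) under every setting tried. Its circle of exon 12 alone had 10, 3, 16 and 12 reads. Setd3, which in mammals methylates a histidine of actin, had 15, 7, 17 and 7 reads, and its circle of exons 2 to 6 alternated in the same way at 15, 5, 17 and 4. That circle was 4.09-fold lower in the alveolar than in the pseudoglandular library (1.30 to 16.9) and 2.94-fold higher in the terminal sac than in the canalicular library (1.04 to 10.2).

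Kmt5b, a methyltransferase for lysine 20 of histone H4, had 13, 7, 18 and 5 reads. Its alveolar level was 2.82-fold lower than its terminal sac level (1.01 to 9.72), a call that 4 of 8 alternative settings removed. Setdb2, a SET protein related to the H3 lysine 9 methyltransferase Setdb1, had 0, 11, 2 and 0 reads and was 6.37-fold lower in the terminal sac than in the canalicular library (1.39 to 59.1), a call lost on the scale of linear reads and with a minimum of 20 reads. Kmt2c, an enhancer methyltransferase, had 10, 13, 23 and 13 reads and was not called in any of the 4 pairs compared.

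Demethylases gave 292 reads from 54 circles of 14 hosts, at 24.6, 28.8, 23.8 and 18.4 per 10000 in order of stage. In the 4 pairs compared, no group ratio had an interval that excluded 1. This rests on Kdm1a: without it the group was 2.53-fold lower in the alveolar than in the pseudoglandular library (1.56 to 4.22) and 2.04-fold lower than in the terminal sac library (1.27 to 3.37). Kdm1a (LSD1), which removes methyl groups from lysine 4 of histone H3, was the host of this group called in the alveolar against pseudoglandular pair, 1 of 4 compared, where 12.9% of all hosts were called higher.

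Kdm1a had 6, 18, 21 and 27 reads in order of stage, or 2.31, 5.77, 5.81 and 9.53 per 10000. Its alveolar level was 4.13-fold higher than its pseudoglandular level (1.67 to 12.2), under all 8 alternative settings as well. The pseudoglandular library listed 1 circle of Kdm1a, that of exons 3 to 8, and the alveolar library listed 6. Exons 3 to 8 gave 6, 3, 13 and 11 reads, and their odds of circular to linear reads were 4.78-fold higher in the alveolar than in the pseudoglandular library (1.81 to 12.6). Linear reads at the ends of that circle were 380 in the alveolar and 1028 in the pseudoglandular library. Its junction read level was not called, at a ratio of 1.68 (0.570 to 5.54). Summed over the host, the odds ratio was 1.98 (0.840 to 4.67) and not called. The other 8 circles gave 0, 15, 8 and 16 reads by stage.

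Kdm2a, an H3 lysine 36 demethylase, had 14, 31, 23 and 10 reads and was not called in any of the 4 pairs compared. Kdm4c had 7, 11, 8 and 7 reads. Kdm5c on the X chromosome had 6, 6, 5 and 3 reads and its Y-linked paralogue Kdm5d had 2, 0, 2 and 2. The paralogues are alike in sequence, so the split of reads between them is uncertain.

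Acetyltransferases gave 152 reads from 6 hosts, of which Kat6b held 123. Kat6b (MORF), an H3 acetyltransferase, had 23, 21, 56 and 23 reads in order of stage, and the terminal sac library was high. It was 2.30-fold higher in the terminal sac than in the canalicular library (1.37 to 4.003), under every setting tried.

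Different circles of Kat6b made up these equal outer counts. The circle of exon 2, which holds the start codon, had 23, 19, 29 and 8 reads in order of stage. All 23 pseudoglandular reads were of this circle, while the other 7 circles gave 0, 2, 27 and 15 reads. The circle of exons 8 to 12 had 0, 2, 14 and 6 reads, and that of exons 8 to 16 had 0, 0, 6 and 4. Exon 2 was 3.13-fold lower in the alveolar than in the pseudoglandular library (1.35 to 8.11). The circle of exons 8 to 12 was 6.04-fold higher in the terminal sac than in the canalicular library (1.39 to 54.8). Among the other acetyltransferases, Kat8 was listed with 7 canalicular reads, Kat2a with 6 pseudoglandular reads and Kat5 with 6 terminal sac reads, each in that library alone.

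Deacetylases, which remove acetyl groups from histones and other proteins, gave few circle reads. Their 6 hosts, Hdac2, Hdac5, Hdac6, Hdac7, Hdac8 and Hdac9, had 27 reads in all, at 2.69, 2.24, 1.11 and 3.18 per 10000 by stage, and none reached the minimum of reads in those pairs.

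ARID DNA-binding proteins outside SWI/SNF gave 77 reads from 4 hosts, at 6.93, 3.84, 2.77 and 13.1 per 10000 in order of stage. The alveolar level was 1.89-fold higher than the pseudoglandular one (1.05 to 3.52) and 4.72-fold higher than the terminal sac one (2.30 to 10.6). The interval of the alveolar over pseudoglandular ratio included 1 without Arid4a, Arid4b or Arid5b, at ratios of 1.55, 1.92 and 1.58. Arid4b, a subunit of the Sin3 deacetylase complex, had 7, 3, 2 and 14 reads and was 8.93-fold higher in the alveolar than in the terminal sac library (2.05 to 81.0). Its paralogue Arid4a had 2, 6, 8 and 10 reads, and its alveolar over pseudoglandular ratio of 4.58 (0.977 to 43.0) did not exclude 1. Arid5b was listed with 6 reads in the alveolar library alone.

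Reader proteins, which bind modified histone tails through PHD fingers, bromodomains or MBT repeats, gave 917 reads from 13 hosts. Their level was 82.7, 90.0, 80.2 and 46.2 per 10000 in order of stage. The alveolar level was 1.79-fold lower than the pseudoglandular one (1.43 to 2.24), and 3 of 6 hosts compared were lower and none higher, where 16.7% and 12.9% of all hosts were called. Phf21a gave most of these reads, and the group difference rests on it. Without Phf21a the readers had 61 alveolar and 62 pseudoglandular reads, a ratio of 0.902 (0.623 to 1.31). Without it the group was 2.11-fold lower in the terminal sac than in the canalicular library (1.46 to 3.10) and 1.69-fold higher in the alveolar than in the terminal sac library (1.14 to 2.54).

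Phf21a (BHC80), a PHD-finger reader of unmethylated H3 lysine 4 that works with Kdm1a in the CoREST complex, had 153, 197, 244 and 70 reads in order of stage. This was 58.9, 63.1, 67.5 and 24.7 per 10000. The embryonic libraries were high and the newborn library low. Its alveolar level was 2.38-fold lower than its pseudoglandular level (1.78 to 3.21) and 2.73-fold lower than its terminal sac level (2.09 to 3.62). On the scale of linear reads described above the alveolar over pseudoglandular ratio was 0.545, short of 2-fold. Its partner in that complex, Kdm1a, had its highest level in the same alveolar library.

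A single circle carried Phf21a: exons 2 to 6, 396 bases with the start codon, had 142, 174, 238 and 64 reads, or 93.1% of the host. It made up 43.4, 42.2, 60.3 and 32.1% of the reads at its ends by stage, the highest values among the leading chromatin circles. The longer circle of exons 2 to 9 had 20 reads in the canalicular library and was not listed elsewhere. Those 20 reads fell into 6 alignment patterns, against 88 patterns for the 174 canalicular reads of the shorter circle.

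L3mbtl3, an MBT-repeat reader of methylated lysines, had 13, 17, 7 and 22 reads in order of stage. It was 2.81-fold lower in the terminal sac than in the canalicular library (1.11 to 8.02) and 4.01-fold higher in the alveolar than in the terminal sac library (1.65 to 11.1). The first of these calls was lost on the scale of linear reads and when circles with 2 reads were left out.

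Phf14 had 13, 12, 5 and 2 reads and was 7.09-fold lower in the alveolar than in the pseudoglandular library (1.60 to 64.7), on 15 reads in the pair. Phf20, a reader in the MOF acetyltransferase complex, had 14, 0, 6 and 0 reads. It was at least 5.09-fold lower in the alveolar and at least 5.61-fold lower in the canalicular than in the pseudoglandular library, from 6 circles of which none had more than 5 reads in a library. Both Phf20 calls were lost when circles with 2 reads were left out. Phf12 had 4, 12, 2 and 6 reads and was 6.95-fold lower in the terminal sac than in the canalicular library (1.55 to 63.9), a call lost without circles that share bases at their ends.

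**Figure D4:**
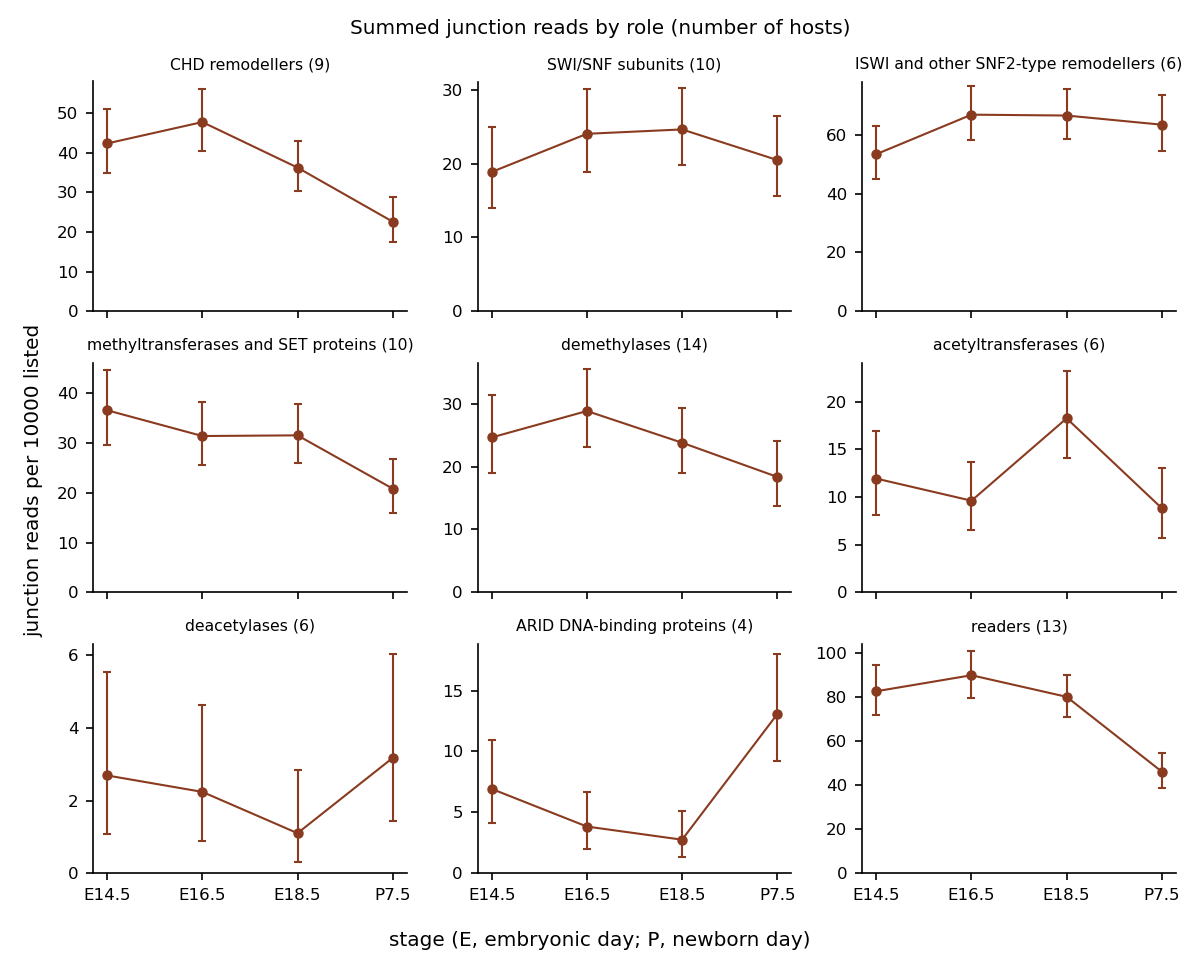
Summed junction reads per 10000 listed (vertical axes, each from 0 and on its own scale) by stage for the 9 role groups, with the number of hosts in brackets; points are single libraries and bars exact 95% Poisson intervals. CHD remodellers, methyltransferases and readers are lowest in the alveolar library, at 22.6, 20.8 and 46.2, and ARID DNA-binding proteins highest, at 13.1.

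Of 40 chromatin hosts compared between the canalicular and pseudoglandular libraries, 1 was higher and 2 were lower, where 8.87% and 11.3% of all hosts were called. Between the terminal sac and canalicular libraries 1 of 36 was higher and 5 were lower, where 12.4% and 12.1% of all hosts were called. Between the alveolar and terminal sac libraries 6 of 30 were higher and 4 were lower, where 12% and 12.4% of all hosts were called. The median member ratio in this last step was 0.617, against 0.851 over all hosts.

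Among single circles, 22 chromatin circles had enough reads in the alveolar and pseudoglandular libraries. Of these 3 were higher and 6 lower, where 12.2% of all circles were called higher and 17.4% lower. The higher ones were Baz2b exons 7 to 11, Arid1a exons 2 to 4 and Ep400 exon 2. The lower ones were Phf21a exons 2 to 6, Kat6b exon 2, Setd3 exons 2 to 6, Kmt5b exons 5 to 9, Chd2 exons 3 to 6 and Chd4 exons 32 to 34. Among the lower circles those of Phf21a, Kat6b and Setd3 begin at exon 2, and so do those of Arid1a and Ep400 among the higher ones.

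The odds of circular to linear reads compare a circle with the linear RNA at its own ends. They were taken for circles listed in both libraries of a pair. Between the alveolar and pseudoglandular libraries, 5 of 20 chromatin circles had higher odds and 1 had lower odds, where 14.7% and 7.64% of all circles were called. The 5 were Kdm1a exons 3 to 8, Arid1a exons 2 to 4, Baz1b exons 7 to 9, Baz2b exons 7 to 11 and Ep400 exon 2, and the lower one was Ep400 exons 2 to 3. The alveolar odds of Arid1a exons 2 to 4 were 3.46-fold higher (1.31 to 9.13) and those of Baz1b exons 7 to 9 were 3.07-fold higher (1.56 to 6.07). The Baz1b circle had near equal junction reads in both libraries, with 17 alveolar and 16 pseudoglandular, while linear reads at its ends were 524 in the alveolar and 1520 in the pseudoglandular library.

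When reads were summed over all circles of a host before the odds were taken, 4 of 31 chromatin hosts had higher odds in the alveolar than in the pseudoglandular library and 3 had lower odds, where 15.2% and 8.22% of all hosts were called. The higher hosts were Arid1a, Baz1b, Chd9 and Smarcc1. Chd9 had 4.61-fold higher odds (1.81 to 11.7) and Smarcc1 5.82-fold higher odds (2.33 to 14.5), although both had fewer junction reads in the alveolar library. The single Chd9 circle listed in the alveolar library, exon 3, had odds near those of the pseudoglandular library, at a ratio of 1.08 (0.352 to 3.32). With 1 circle kept per shared end, the odds of Smarcc1 were 3.49-fold higher (1.21 to 10.03). Its pseudoglandular library listed 5 circles and its alveolar library 1, so its sums cover different circles. No single Smarcc1 circle listed in both libraries had 10 reads in the pair. The lower hosts were Kat6b, Kmt5b and Smarca2, among them Kmt5b with 5.58-fold lower odds (2.06 to 15.1). The pseudoglandular library listed 1 circle of Kat6b, that of exon 2, and the alveolar library listed 5. For the exon 2 circle alone the odds ratio was 0.518 (0.227 to 1.18) and not called. With 1 circle kept per shared end, Kmt5b had 9.20-fold lower odds (2.75 to 30.7), and the ratio of Smarca2 was 0.343 (0.0983 to 1.20) and no longer called. The Kmt5b values set different circles against each other. Its circle of exons 5 to 9 had 11 pseudoglandular and 0 alveolar reads, and all 5 alveolar reads came from other circles. The linear reads in such a sum depend on which circles are listed: those of Smarca2 came to 6373 in the alveolar and 419 in the pseudoglandular library.

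Between the terminal sac and canalicular libraries, 7 of 29 chromatin circles had higher odds and none had lower odds, where 20.1% and 2.66% of all circles were called. Higher odds were thus common to circles of all hosts in the terminal sac library, with a median ratio of 1.52 for members and 1.47 over all circles. Between the alveolar and terminal sac libraries 2 of 26 were higher and 6 were lower, where 3.60% and 19.7% of all circles were called. Phf21a exons 2 to 6 was among them on both sides of the terminal sac stage, with odds 2.08-fold higher than in the canalicular library (1.63 to 2.65) and 3.20-fold lower in the alveolar than in the terminal sac library (2.33 to 4.41). Between the canalicular and pseudoglandular libraries 2 of 19 were higher and 2 were lower, where 10.9% and 4.86% of all circles were called.

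**Figure D5:**
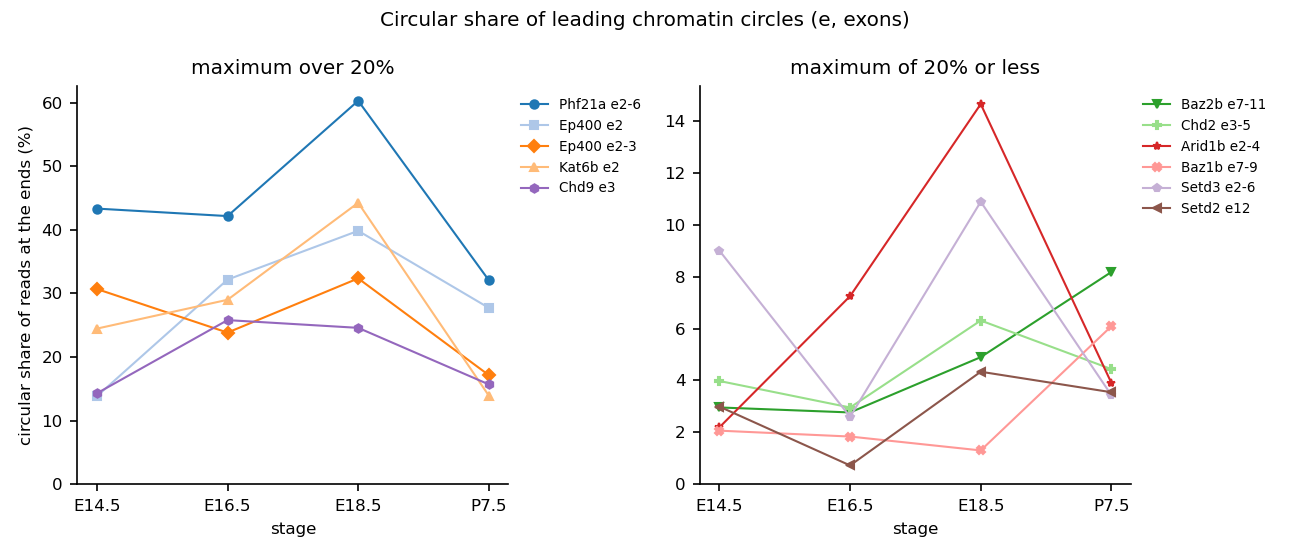
Circular share of reads at the circle ends in percent (vertical axes, from 0) by stage for the leading chromatin circles listed in all 4 libraries, with exon numbers after each name; each point is 1 library. Phf21a exons 2 to 6 reaches 60.3% at embryonic day 18.5, most circles are highest there, and Baz2b exons 7 to 11 and Baz1b exons 7 to 9 are highest at newborn day 7.5.

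In structure the chromatin circles were close to those of other hosts. Of the member circles 73.1% were listed in 1 library, against 74.0% of the circles of other hosts, and 6.65% in all 4, against 6.83%. Circles of the exon type made up 92.3% of members and 88.8% of others. The median spliced length was 853 bases for members and 646 for others among circles with both ends at exon boundaries, with a median of 5 and 4 exons. Their GC content was 47.0% in members and 47.1% in others at the median.

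Exon 2 was the first exon of 23.9% of these member circles, against 30.3% in other hosts. Circles starting there took 54.3% of member reads and 44.2% of other reads. The leading circles of Phf21a and Ep400, which together held 35.0% of all member reads, start at exon 2. The member share without these hosts was not computed, so the higher value is not shown to be a trait of chromatin hosts. The start codon lay inside 21.1% of member circles and 15.1% of others. Among member circles 46.2% had a spliced length that is a multiple of 3, against 38.8% of others. These are descriptions of the listed circles, which share hosts and libraries, and no difference was tested.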

How the data were processed

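Circle lists were deposited for 1 library per stage of C57BL/6 mouse lung. Per the submitters' processing notes, which give no roles, the tools were BWA, HTSeq, StringTie, HISAT2 2.0.5 and cutadapt, with mm10 as the build. The column names are those of the caller CIRI. Per the file headers, the deposited values are read counts for the junction and for linear reads at its ends (non-junction reads), with blanks here taken as 0, and a deposited fraction, the junction ratio. That fraction was recomputed from the counts with 0 mismatches (tolerance 0.00051). Every listed circle had 2 or more junction reads, and the lists hold no strand column, so strands were taken from the host gene.

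Hosts were matched by Ensembl identifier to GENCODE M21 (4647 of 4653 found), and exons and sequences were read from its transcripts. Depth ranged from 25983 to 36156 listed junction reads per library, all from 1 flow-cell lane. Ratios of read shares carry exact conditional binomial intervals, shares Clopper-Pearson intervals and levels exact Poisson intervals. Odds of circular reads used 0.5 added to each count and Woolf's interval. Reads without molecular identifiers are not independent molecules, so intervals cover counting error only. Bases shared between circle ends were counted on the spliced transcript, with 6 or more taken as a repeat. Few alignment patterns meant under 0.4 per read and under 50 in all, with 10 or more reads in the library with most reads, limits set after the values were seen. Odds per circle were added after the values were seen, because sums of linear reads per host depend on which circles are listed.

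The members, role groups and other lists were chosen with earlier results of these data known. Named hosts were the 12 with most reads, the 5 with most circles, the leading 3 of each role group, all called hosts of the 4 pairs, and those leading by odds. Smarca4, Smarcc2, Smarcad1, Baz1a, Chd7, Kdm5c, Kdm5d, Kat5, Arid5b, Hdac2, Hdac5 and Hdac8 fall outside this rule and were added after their values were seen. Some results under this rule are not reported here. Alternatives were 3 other scalings, a minimum of 20 reads or none, circles with 3 or more reads, leaving out the marked circles and, chosen after the values were seen, leaving out each host of a role group in turn. The calculation was tested on simulated data. Python 3.11.15 was used with numpy 2.4.6, pandas 2.3.3, scipy 1.17.1 and matplotlib 3.10.9.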

Additional observations from a re-analysis of the deposited data

Results flagged for a closer look

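A circle with no deposited host lay inside the deacetylase gene Hdac9, at chr12:34215011-34221259. It had 4 junction reads in the terminal sac library and was not listed at the other stages. It was flagged because the comparisons use circles with a deposited host and these reads are above the limit of 3 that a count of 0 allows. It was the only such circle inside the 78 host genes. With 1 library per stage, no search for an outlying sample was made.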

How the results depend on the processing

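No paired analysis was possible because each stage has 1 library. The values below are counts of called chromatin hosts or circles, or ratios of the summed member reads. Under the other scalings these ratios are not shares of listed junction reads. The cause of each change was not tested.

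Scaling by total non-junction reads gave 5 higher hosts in the canalicular against the pseudoglandular library. Its ratios of summed member reads were 1.23 for that pair and 0.893 for terminal sac over canalicular, both with intervals that excluded 1. Median-of-ratios scaling of non-junction reads, chosen after seeing the data, gave 5 higher hosts in the canalicular against the pseudoglandular library. It also gave 6 higher and 3 lower in the terminal sac against the canalicular library, 10 lower in the alveolar against the terminal sac library, and 2 lower circles in the alveolar against the pseudoglandular library. Its ratios of summed member reads were 1.20 for canalicular over pseudoglandular, 1.41 for terminal sac over canalicular and 1.007 for alveolar over pseudoglandular. The last is near 1, and the main terminal sac over canalicular ratio was 0.936 with an interval that included 1 (0.856 to 1.02).

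A minimum of 20 reads left 0 higher and 1 lower host in the canalicular against the pseudoglandular library (with 22 compared), 3 lower in the terminal sac against the canalicular library, and 3 lower circles in the alveolar against the pseudoglandular library. Circles with 3 or more reads gave 3 higher hosts in the canalicular against the pseudoglandular library with a share ratio of 1.13, and 2 higher in the terminal sac against the canalicular library. Leaving out repeat-end circles, with or without few-pattern ones (the last chosen after seeing the data), gave 2 higher and 3 lower hosts in the terminal sac against the canalicular library and 3 lower circles in the alveolar against the pseudoglandular library. Without Phf21a the terminal sac over canalicular share ratio was 0.901.

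No fold of a named host changed direction while called. Depth limits the comparisons: 30 of 78 hosts had fewer than 10 reads.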

Other observations

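Of 110 other chromatin genes, listed by name with earlier results known, 80 hosted circles. Between the alveolar and pseudoglandular libraries 3 of 46 compared were higher and 9 were lower, where 12.9% and 16.7% of all hosts were called. Their summed share was 1.47-fold lower in the alveolar library (1.36 to 1.59). The Polycomb genes Ezh2, Suz12 and Jarid2 were among the lower. Other Polycomb genes of the list, such as Ezh1, Eed and Rnf2, were not among the called hosts of this pair. Ezh2, the H3 lysine 27 methyltransferase, had 74 alveolar and 180 pseudoglandular reads and was 2.65-fold lower (2.01 to 3.53). Suz12, its core partner, had 0 alveolar and 11 pseudoglandular reads and was at least 3.998-fold lower. Morc3, an ATPase with a reader domain, had 24 alveolar and 97 pseudoglandular reads and was 4.41-fold lower (2.80 to 7.21). Hells, a remodeller that also stands in the cycling-cell list, had 3 alveolar and 16 pseudoglandular reads and was 5.82-fold lower (1.66 to 31.1).

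Ino80 and Tet3 were among the higher hosts. Ino80, a remodelling ATPase, had 30 alveolar and 9 pseudoglandular reads and was 3.06-fold higher (1.41 to 7.32). Ncor1, a corepressor, was among the lower hosts and had 9 alveolar and 23 pseudoglandular reads, a 2.79-fold lower share (1.24 to 6.84).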
